A study of Mus musculus with 20 samples.

Results

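The metallothioneins Mt1 and Mt2 were followed across extraocular muscle (EOM), the muscle that turns the eyeball, and leg muscle of mdx and control mice. The members are the probe sets whose platform annotation names Mt1 or Mt2 and no other gene. There was 1 probe set for each gene, 2 of the 12654 on the array, and both were bright enough to be tested among 7204 probe sets. The genes were chosen by their measured signals in extraocular muscle, where Mt2 was higher in mdx mice. Every comparison of Mt1 or Mt2 that has extraocular arrays among the groups compared is therefore described here and not tested. The tests within groups, of the array by array correlation and of single arrays far from their group, do include the extraocular arrays. The limma tests in leg muscle also take their spread from all 4 groups, so the extraocular arrays enter their SE and p-values. All 4 groups were 8 weeks old. The EOM mdx and leg mdx arrays came from mice with the mdx mutation, a loss-of-function mutation of Dmd, which encodes dystrophin of the muscle fibre membrane. The EOM control and leg control arrays came from mice labelled as controls, wild type by the title of the series. The control leg samples were labelled gastrocnemius/soleus, while the mdx ones were labelled only as leg muscle. Total RNA was hybridised to 20 one-colour Affymetrix arrays, 5 in every group. Replicate arrays are numbered in the labels, but separate animals are not named, so the spread that each p-value rests on is between arrays and perhaps technical. Strain, sex and dissection were not given in the sources used here, and mdx and control arrays carry different description labels, so a batch that goes with them cannot be told apart from genotype.

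Metallothioneins are small cysteine-rich proteins that bind zinc and copper in the cell and react with oxidants. Mt1 and Mt2 are made in most tissues, and their transcripts are known to rise with zinc through the metal-sensing transcription factor MTF-1, with glucocorticoids, with interleukin 6 signalling and under oxidative stress. Mt3 is best known from the brain and Mt4 from stratified epithelium.

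Among the protein-coding genes that RefSeq places on chromosome 8, Mt4, Mt3, Mt2 and Mt1 follow each other in this order. The promoter windows of the 2 members are shown because Mt1 and Mt2 both rose in mdx leg muscle. Each window holds 250 bases before and 50 after the annotated start, on the plus strand of GRCm38.p6, as given by RefSeq. Mt1 lies at chr8:94178839-94179138 and Mt2 at chr8:94172368-94172667. The annotated span of Mt1 also begins inside its window. Capitals mark the core letters of the metal response element, the site bound by MTF-1, searched as TGCACNC or TGCGCNC on both strands.
Mt1: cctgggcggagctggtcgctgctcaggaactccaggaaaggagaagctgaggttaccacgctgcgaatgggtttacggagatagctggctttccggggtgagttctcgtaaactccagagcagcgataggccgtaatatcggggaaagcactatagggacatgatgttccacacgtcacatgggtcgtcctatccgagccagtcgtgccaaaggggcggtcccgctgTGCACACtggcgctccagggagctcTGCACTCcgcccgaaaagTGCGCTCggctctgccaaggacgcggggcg
Mt2: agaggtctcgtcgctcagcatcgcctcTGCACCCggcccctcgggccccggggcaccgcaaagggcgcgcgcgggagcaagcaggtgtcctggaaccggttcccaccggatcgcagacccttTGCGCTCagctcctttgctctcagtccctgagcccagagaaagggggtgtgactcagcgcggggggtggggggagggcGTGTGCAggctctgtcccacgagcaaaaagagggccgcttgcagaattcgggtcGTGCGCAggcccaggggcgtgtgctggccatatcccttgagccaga
The Mt1 window held 3 matches. The first, TGCACAC, began 23 bases before the annotated start, and TGCACTC and TGCGCTC lay just after it. The Mt2 window held 4 matches. TGCACCC and TGCGCTC lay 223 and 128 bases before the start. Matches on the opposite strand began 50 bases before it, printed as GTGTGCA, and just after it, printed as GTGCGCA. The Mt3 and Mt4 windows held 1 each. Of 32851 RefSeq mouse promoter windows of the same 300 bases, 25.7% held at least 1 match, 1.97% at least 3 and 0.517% at least 4. The core of the antioxidant response element, TGACNNNGC, was matched once in Mt2 (TGACTCAGC) and in 12.4% of all windows, and had no match in the Mt1 window. Bases outside the windows were not searched, and the positions hold for the annotated start only. Which start muscle uses was not tested. A match to these letters is a description of the sequence and not a measured binding site.

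The samples carried the RNA of muscle. All 10 skeletal muscle markers on the array exceeded a scaled signal of 200 in each group's mean, where scaled means that each array's trimmed mean was set to 500. Dmd averaged 119 ± 31.7 in EOM mdx and 268 ± 47.4 in EOM control arrays (SD, n = 5 each), with every mdx array below every control array but a limma adjusted p of 0.233. In leg muscle Dmd averaged 77.5 ± 32.3 in mdx and 149 ± 40.2 in control arrays (limma adjusted p = 0.0323, and 0.188 without leg control 1 and 4). The leg groups overlapped, with leg mdx 4 at 126 above leg control 5 at 100.2. A pair of control leg arrays stood apart. Leg control 1 correlated least with the rest of its group (mean r of 0.892, against 0.903 to 0.919 for the other leg controls) and a summed muscle marker signal of 140778, against 50848 to 82218. Leg control 4 had a summed signal of epithelial and gland markers of 16010, against 3517 to 5280 on the other leg controls. Both were kept. The comparisons of leg controls with leg mdx and with EOM controls were also run without them. Precision is limited by having 5 arrays a group.

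In leg muscle both metallothioneins rose in mdx mice. Earlier results of these data were known when the genes were chosen, which is a limit on the leg p-values. Mt1 had scaled signals of 6377, 2686, 5511, 3181 and 3634 on leg mdx arrays 1 to 5, against 2013, 893, 987, 1040 and 851 on leg control arrays 1 to 5. Every leg mdx array lay above every leg control array, and leg control 1 was the highest of its group. The mean was 4278 ± 1587 in leg mdx and 1157 ± 484 in leg control arrays (SD, n = 5 each), a 3.70-fold difference of the geometric means (log2 difference 1.89, SE 0.23, limma adjusted p = 3.42e-06). The log2 SD of Mt1 was 0.53 in leg mdx and 0.50 in leg control arrays, against 0.18 in EOM mdx and 0.30 in EOM control arrays. The pooled spread behind this SE is therefore smaller than that of the leg arrays. Over the alternatives the limma adjusted p reached 0.000428.

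Mt2 had scaled signals of 11873, 10899, 6617, 9470 and 13210 on leg mdx arrays 1 to 5, against 2583, 1684, 1593, 2011 and 2088 on leg control arrays 1 to 5. The groups did not overlap, and leg mdx 3, high for Mt1, was the lowest of its group for Mt2. The mean was 10414 ± 2524 in leg mdx and 1992 ± 392 in leg control arrays, a 5.17-fold difference (log2 difference 2.37, SE 0.20, limma adjusted p = 1.42e-08). Across the 7204 tested probe sets, 17.9% passed in either direction and 10.7% passed as higher in mdx leg muscle, at a Benjamini-Hochberg adjusted p under 0.05, and 8.38% had all mdx arrays above all controls. The increase was larger than that of Mt2 for 62 probe sets and larger than that of Mt1 for 141. Without leg control 1 and 4 the log2 differences were 2.16 for Mt1 and 2.51 for Mt2 (limma adjusted p = 1.14e-06 and 1.52e-07).

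**Figure D1:**
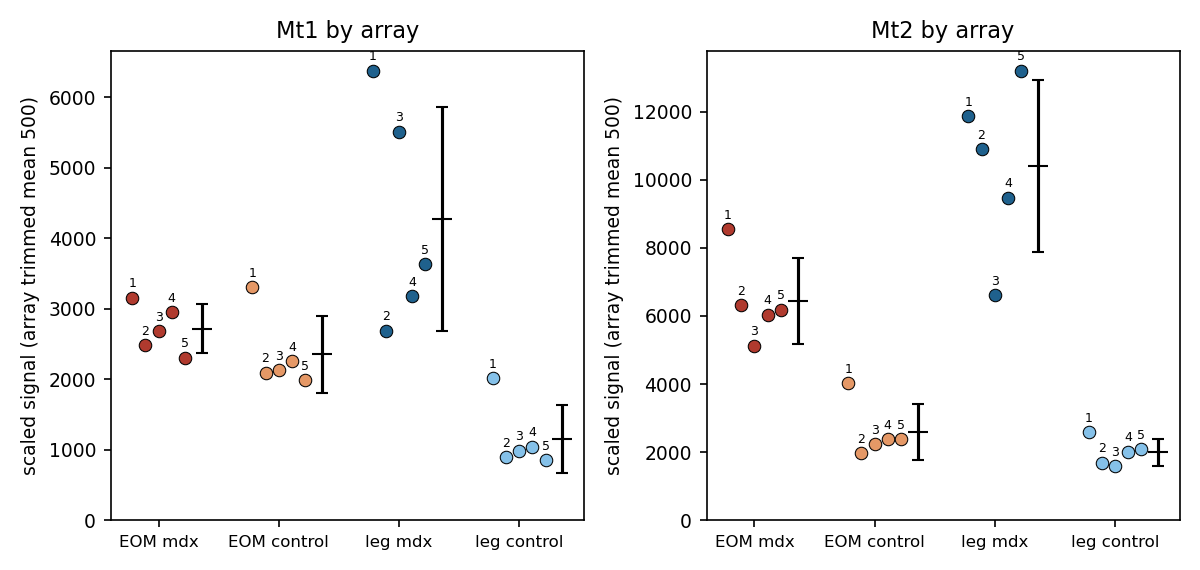
Scaled signal of Mt1 (left) and Mt2 (right) on each of the 20 arrays, as points numbered by array, with the group mean and SD as bars; the vertical axes start at 0. All 5 leg mdx arrays lie above all 5 leg control arrays for both genes, and in extraocular muscle the mdx arrays lie above the controls for Mt2 and overlap them for Mt1.

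Whether Mt2 rose more than Mt1 in leg muscle was read from the Mt2 over Mt1 ratio within each array, a test added after the data were seen. The brightness of a probe set depends on its probes, so only the difference of this ratio between groups can be read. The log2 ratio was 1.32 ± 0.73 in leg mdx and 0.84 ± 0.35 in leg control arrays (SD, n = 5 each). The difference of 0.48 was within the spread between arrays (exact permutation test, two-sided, p = 0.222). Leaving out leg control 1 and 4 gave 0.36 (exact permutation p = 0.464).

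In extraocular muscle Mt2 had scaled signals of 8552, 6308, 5127, 6036 and 6178 on EOM mdx arrays 1 to 5, against 4025, 1963, 2235, 2386 and 2381 on EOM control arrays 1 to 5. All EOM mdx arrays lay above all EOM control arrays, which was so for 0.5% of tested probe sets, and nothing is read from this since the comparison led to the choice of the gene. The log2 difference of Mt2 was 1.34 (SE 0.20), and 15 tested probe sets had a larger one.

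Mt1 had scaled signals of 3158, 2480, 2680, 2956 and 2304 on EOM mdx arrays 1 to 5, against 3310, 2090, 2132, 2257 and 1985 on EOM control arrays 1 to 5. These groups overlapped through EOM control 1, which was the highest of all 10. The mean was 2716 ± 346 in EOM mdx and 2355 ± 543 in EOM control arrays, with a log2 difference of 0.22 (SE 0.23). Without EOM control 1 the log2 difference of Mt1 was 0.35. The Mt2 over Mt1 log2 ratio lay between 0.94 and 1.44 on EOM mdx arrays and between -0.09 and 0.28 on EOM control arrays, with no overlap. It was not tested, because the extraocular Mt2 values led to the choice of the genes.

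The mdx differences were larger in leg than in extraocular muscle, by 1.67 log2 units for Mt1 (SE 0.33) and by 1.03 for Mt2 (SE 0.28). They were 1.93 and 1.18 without leg control 1 and 4. These values hold the extraocular comparison and were not tested. Over all 7204 probe sets, the median log2 difference was -0.06 in leg and -0.02 in extraocular muscle.

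**Figure D2:**
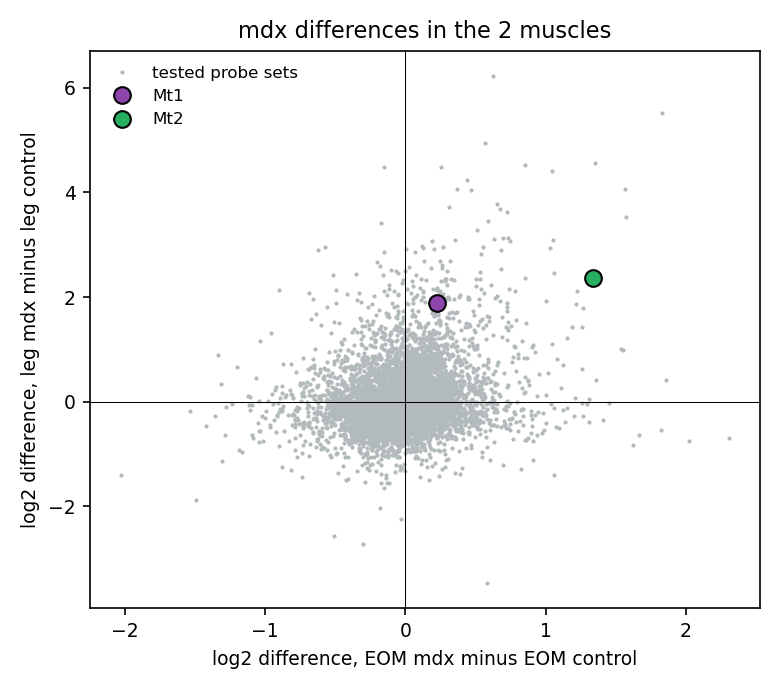
The mdx minus control log2 difference in extraocular muscle (horizontal axis) and leg muscle (vertical axis) for the 7204 tested probe sets, as grey points, with Mt1 and Mt2 marked. Mt2 lies up and to the right, at 1.34 and 2.37, while Mt1 lies at 0.22 and 1.89.

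By mean signal, both genes were highest in leg mdx, followed by EOM mdx, EOM control and leg control arrays. Neighbours in this order overlapped for both genes, except EOM mdx and EOM control arrays for Mt2. In mdx mice the log2 difference of EOM minus leg was -0.68 for Mt2 (SE 0.20) and -0.59 for Mt1 (SE 0.23). When 1 array was left out it lay between -0.83 and -0.58 for Mt2 and between -0.73 and -0.42 for Mt1. Between these 2 groups 18.1% of tested probe sets passed, 9.24% as higher and 8.83% as lower in EOM mdx.

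In control mice the geometric mean of Mt1 was 2.11-fold higher in extraocular than in leg muscle (log2 difference 1.08, SE 0.23, and 1.35 without leg control 1 and 4), while 17.7% of tested probe sets passed, 10.3% as higher and 7.41% as lower in extraocular muscle. The groups overlapped by 1 array, since leg control 1 at 2013 lay just above EOM control 5 at 1985. The Mt2 log2 difference was 0.36 (SE 0.20, and 0.50 without leg control 1 and 4), and its groups overlapped. Both comparisons between muscles use the extraocular arrays that led to the choice of the genes, so neither was tested and nothing is read from the shares of all probe sets.

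**Figure D3:**
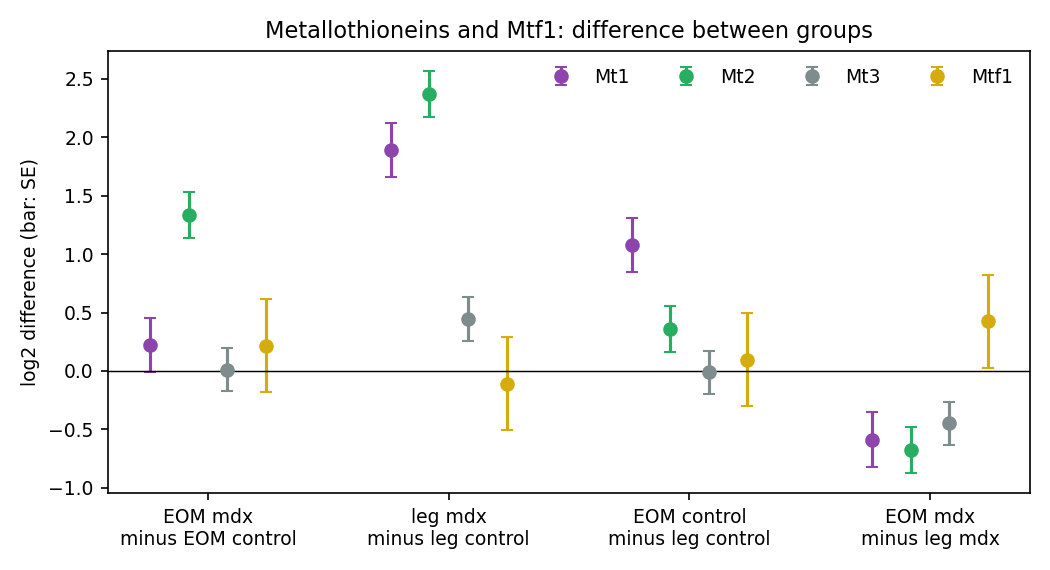
Log2 differences between groups, with their SE as bars, of Mt1, Mt2, Mt3 and the regulator Mtf1 in 4 comparisons. Mt1 and Mt2 have the largest values of the 4 genes in leg mdx minus leg control, at 1.89 and 2.37, while Mtf1 is at -0.11 there.

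The other metallothioneins on the array did not pass in any of the 4 comparisons between groups or were too dim to test. Mt3 had scaled signals of 3148, 1915, 2560, 2088 and 2634 on leg mdx arrays 1 to 5, against 1678, 2736, 1459, 1974 and 1374 on leg control arrays 1 to 5. The highest leg control array lay within the range of the leg mdx arrays (log2 difference 0.44, SE 0.19, limma adjusted p = 0.106, and 0.46 and 0.185 without leg control 1 and 4). In extraocular muscle the Mt3 log2 difference was 0.01 (SE 0.19, limma adjusted p = 1). Mt4 stayed between 25.1 and 110 on all arrays but leg control 4, where it was at 311. That is the array with the highest summed signal of epithelial and gland markers, and the part of those cells in it was not tested. Probe sequences were not among the sources used here, so whether a probe set of 1 metallothionein also reads another was not tested.

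Mtf1, the gene of the metal sensor, had a mean scaled signal of 231 ± 121 in leg mdx and 231 ± 78.3 in leg control arrays (log2 difference -0.11, SE 0.40, limma adjusted p = 0.891). Its log2 difference was -0.42 without leg control 1 and 4 (SE 0.45, limma adjusted p = 0.597). In extraocular muscle it averaged 284 ± 87.7 in mdx and 271 ± 161 in control arrays (log2 difference 0.22, SE 0.40, limma adjusted p = 0.999).

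Genes of the pathways known to act on Mt1 and Mt2 were read as 4 lists, each gene by its brightest tested probe set. Of 18 tested zinc and copper handling genes 1 rose in mdx leg muscle and 0 fell, against 10.7% and 7.15% of all tested probe sets, with a median log2 difference of 0.08. The 1 gene was the zinc importer Slc39a6, at 177 ± 50.7 in leg mdx and 88.4 ± 46.3 in leg control arrays (log2 difference 1.04, limma adjusted p = 0.0417), with 2 leg control arrays at the floor of 50. Its call ended under 11 of 23 alternatives, among them those without leg control 5 or without any 1 of leg mdx 2, 3, 4 and 5.

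Of 18 genes of the glucocorticoid receptor and its targets 1 rose and 1 fell in mdx leg muscle, against 10.7% and 7.15% of all tested probe sets, with a median of -0.09. Errfi1, an inhibitor of EGF receptor signalling, averaged 1395 ± 112 in leg mdx and 971 ± 75.4 in leg control arrays (log2 difference 0.52, limma adjusted p = 0.02). Lpin1, a phosphatase of lipid synthesis, averaged 1802 ± 391 in leg mdx and 3421 ± 481 in leg control arrays (log2 difference -0.94, limma adjusted p = 9.75e-05). Without leg control 1 and 4, 0 rose and 1 fell. The count risen was 2 without leg control 1 and 0 without leg mdx 4, and the count fallen was 2 without leg control 4 or without leg mdx 1.

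Of 18 genes of interleukin 6 signalling and the acute phase 7 rose and 1 fell in mdx leg muscle, against 10.7% and 7.15% of all tested probe sets, with a median of 0.13 against -0.06 over all. Timp1, an inhibitor of matrix proteases, averaged 3048 ± 756 in leg mdx and 579 ± 281 in leg control arrays (log2 difference 2.49, limma adjusted p = 5.96e-08). The acute phase protease inhibitor Serpina3n averaged 2190 ± 678 in leg mdx and 602 ± 146 in leg control arrays (log2 difference 1.84, limma adjusted p = 0.00201). Lbp, which binds bacterial lipopolysaccharide, differed by 0.75 log2 units and Osmr, the receptor of oncostatin M, by 0.71 (limma adjusted p = 0.00182 and 0.0098). The gene that fell was Lifr, a receptor of the same cytokine family. Without leg control 1 and 4, 6 rose and 1 fell. With a filter of 500 in place of 200, which tests fewer genes, 4 rose, and in a fit of only the leg arrays 0 fell.

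Of 24 genes of the oxidative stress response 2 rose and 2 fell, near the 10.7% and 7.15% of all tested probe sets, with a median of -0.22. Thioredoxin, Txn1, averaged 5754 ± 748 in leg mdx and 3765 ± 605 in leg control arrays (log2 difference 0.62, limma adjusted p = 0.00536), and the extracellular superoxide dismutase Sod3 differed by 0.68 (limma adjusted p = 0.00812). Gstm1 and mitochondrial Sod2 were the genes that fell (-0.53 and -0.32, limma adjusted p = 0.0273 and 0.0374). Without leg control 1 and 4, 2 rose and 0 fell. The count fallen was 0 without leg control 1, leg mdx 3 or leg mdx 5, and 1 without leg control 3, 4 or 5 or leg mdx 2 or 4.

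In extraocular muscle no gene of these 4 lists passed in either direction, against 0.0833% of all tested probe sets. Per1, a clock gene that glucocorticoids induce, averaged 414 ± 82.4 in EOM mdx and 240 ± 118 in EOM control arrays (limma adjusted p = 0.715). Osmr averaged 469 ± 43.9 in EOM mdx and 325 ± 79.8 in EOM control arrays (limma adjusted p = 0.862). Per1 and Osmr are examples that both lay higher in EOM mdx arrays. Genes that lay lower, and genes of the zinc and copper and oxidative stress lists, are not named here. The median of the glucocorticoid list was 0.27 there, and those of the other lists lay between -0.05 and 0.08.

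**Figure D4:**
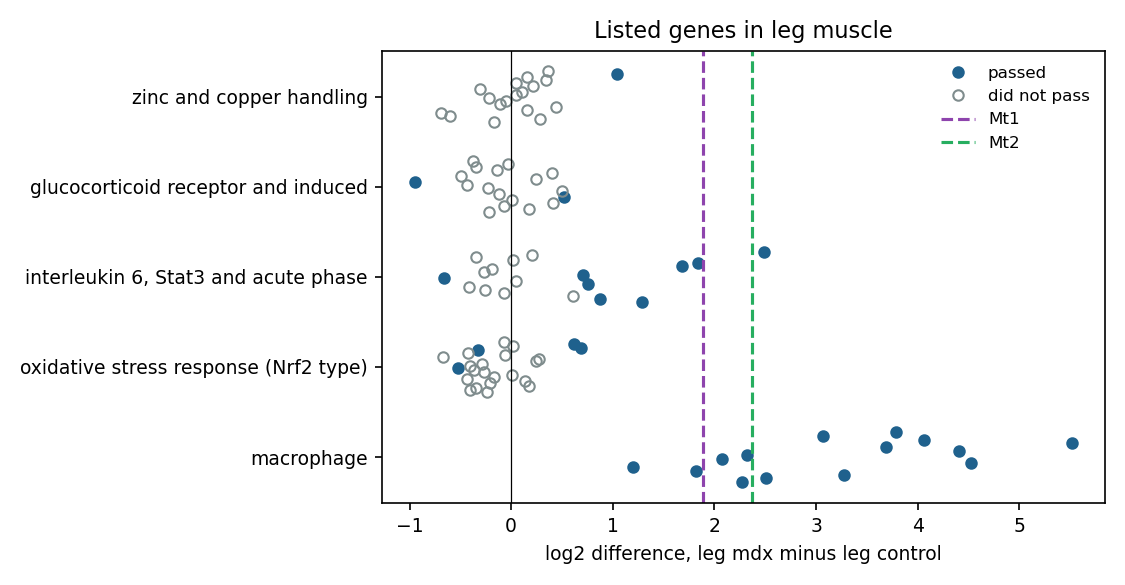
Log2 differences of leg mdx minus leg control for the tested genes of 4 pathway lists and of the macrophage marker list, 1 point per gene, filled where the gene passed; dashed lines mark Mt1 and Mt2. In the pathway lists Timp1, at 2.49, is the only gene to the right of Mt2, while 9 of the 14 macrophage markers lie there.

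Markers of macrophages and fibroblasts rose with the metallothioneins in leg muscle. Of the other cell types, 1 of 4 neutrophil, 0 of 9 endothelial, 0 of 5 adipocyte, 0 of 4 nerve, 0 of 7 epithelial and 0 of 10 skeletal muscle markers rose. With 10.7% of all tested probe sets risen, lists this short cannot be told apart from that share. All 14 tested macrophage markers rose in leg mdx arrays, against 10.7% of all tested probe sets, with a median log2 difference of 3.17. All 14 also rose without leg control 1 and 4. A marker bright only in leg mdx arrays can pass the filter through those 5 arrays, so this share depends partly on the filter. Cd53 averaged 1391 in leg mdx, 104 in EOM mdx, 17.9 in EOM control and 40.9 in leg control arrays. Fcer1g, too dim to test, averaged 48.6 in leg mdx and 45.9 in leg control arrays. Without a filter 15 macrophage markers rose. The summed signal of the 16 macrophage markers on the array lay between 44023 and 57120 in leg mdx and between 5189 and 7432 in leg control arrays. In the leg mdx mean 1 of the 16 lay below the floor of 50, and in the leg control mean 2 did. Of 8 fibroblast markers 7 rose (6 without leg control 1 and 4), against 10.7% of all tested probe sets. Their sum lay between 38924 and 45263 in leg mdx and between 23671 and 28118 in leg control arrays. The part of these cells in the Mt1 and Mt2 signals was not tested. In whole muscle RNA, more cells of a type and more RNA per cell cannot be told apart.

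In extraocular muscle the macrophage sum lay between 8892 and 16365 in mdx and between 8283 and 11577 in control arrays, with overlap. Of the 14 tested macrophage markers 1 passed there, against 0.0833% of all tested probe sets. It was the lysosomal protease Ctss (log2 difference 1.04, limma adjusted p = 0.0259). The sum of the 17 epithelial and gland markers lay between 7838 and 11617 in EOM mdx and between 7472 and 8515 in EOM control arrays. Of the 7 tested ones 0 passed by their brightest probe set, against 0.0833% of all tested probe sets, with a median log2 difference of 0.43. They did not all go the same way. Bpifa2 averaged 3834 ± 492 in EOM mdx and 4235 ± 429 in EOM control arrays, and Amy1 303 ± 67.2 and 336 ± 50.5. The epithelial keratin Krt6a averaged 1703 ± 919 in EOM mdx and 640 ± 132 in EOM control arrays on its brightest probe set (limma adjusted p = 0.0728). Its other probe set passed (866 ± 521 in EOM mdx and 158 ± 64.7 in EOM control arrays, limma adjusted p = 0.0259). The part of these cells in the Mt2 signal was not tested. The log2 ratio of the 3' to the 5' beta-actin control probe set, a check of RNA integrity, was -1.86 ± 1.25 in leg mdx and 0.50 ± 0.37 in leg control arrays, while that of Gapdh was -2.50 ± 0.14 in leg mdx and -2.48 ± 0.84 in leg control arrays. In extraocular muscle the Gapdh ratio was -1.27 ± 0.62 in mdx and -2.35 ± 0.84 in control arrays, and that of beta-actin 0.17 ± 0.35 and 0.08 ± 0.20 in mdx and control arrays. The part of RNA integrity in these results was not tested.

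Array by array, the 2 genes were compared by each array's log2 deviation from its group mean. The arrays numbered 1 were the only 4 of the 20 on which both genes lay above the group mean. Mt1 was highest on array 1 in all 4 groups, and Mt2 in 3 of them, being second on leg mdx 1. On leg mdx 3 the genes went opposite ways, Mt1 0.44 above and Mt2 0.62 below the group mean on the log2 scale. Over the 20 deviations Pearson's r was 0.35 (permutation p = 0.186) and Spearman's rho 0.22 (permutation p = 0.385), with arrays permuted within groups, two-sided. Adjusted over these 2 coefficients of the same relation by Benjamini-Hochberg, the p-values were 0.372 and 0.385. The deviations leave out the group differences by which the genes were chosen, but the extraocular arrays of that choice are among the 20. Without leg control 1 and leg mdx 1, the arrays farthest from the median of Mt1, r was 0.10 (permutation p = 0.748). Without leg mdx 3, r was 0.61 (permutation p = 0.00682), and without leg control 1 and 4 it was 0.18 (permutation p = 0.585). Without the 4 arrays numbered 1 it was -0.58 (permutation p = 0.233). That last setting was added after these arrays were seen to be the only ones with both genes above the group mean, so leaving them out lowers r by construction.

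**Figure D5:**
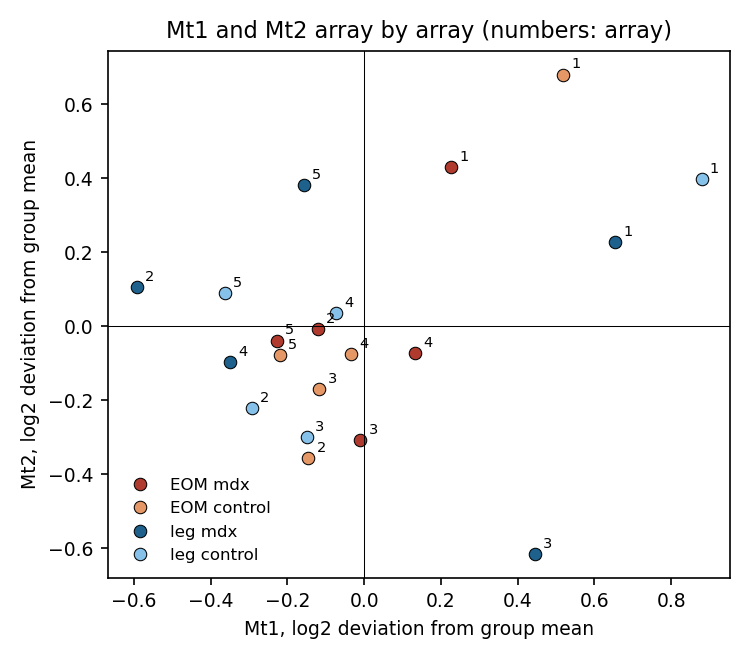
Log2 deviation of each array from its group mean, Mt1 on the horizontal and Mt2 on the vertical axis, coloured by group and numbered by array. The 4 arrays numbered 1 lie above 0 on both axes and no other array does; leg mdx 3 lies at the lower right.

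The genes whose levels were most like those of both Mt1 and Mt2 were ranked by the lower of their 2 Pearson correlations over the log2 values of all 20 arrays, among 5466 genes. The 6 leading ones were Tnnt2, the cardiac and embryonic type troponin T (0.85), Laptm5, a lysosomal protein of leukocytes (0.84), the tubulin Tubb2a (0.83), the membrane protein Fxyd5 (0.82), the cholesterol exporter Abca1 (0.81) and Timp1 (0.79). Tnnt2 had mean signals of 422 ± 73.1 in EOM mdx, 341 ± 35.6 in EOM control, 752 ± 113 in leg mdx and 160 ± 22.8 in leg control arrays. Laptm5 had 580 ± 159 in EOM mdx, 370 ± 111 in EOM control, 2377 ± 111 in leg mdx and 193 ± 74.9 in leg control arrays. All 6 genes had the same order of group means as Mt1 and Mt2, and none passed in extraocular muscle (limma adjusted p of 0.955 or more). These points share arrays and group differences, so the correlations are a description.

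Ranked in the same way on deviations from group means, the 6 leading genes were others. They were the myosin light chain Myl6b (0.64), the mitochondrial creatine kinase Ckmt2 (0.64), glycogenin, Gyg (0.62), the nucleic acid binding protein Ybx3 (0.61), the mitochondrial membrane protein Ghitm (0.59) and the fast fibre actinin Actn3 (0.58). By their suffix, the probe sets of Ckmt2, Gyg and Tubb2a may also read related genes. The summed muscle marker signal was highest on array 1 in EOM mdx, leg mdx and leg control arrays, at 100792, 80812 and 140778, and not in EOM control arrays, where array 1 had 53511 and the others lay between 47794 and 74139. Its part in the array 1 values of Mt1 and Mt2 was not tested.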

How the data were processed

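Total RNA of extraocular and leg muscle was measured on 20 one-colour Affymetrix arrays, 5 in each of 4 groups taken from the titles. The deposited values are intensities on a linear scale. The mdx arrays carry a note naming Affymetrix's standard protocol, per the labels. The name of the summarising software was not given in the sources used here. The deposited intensities run from 0.4 to 95476.8 with a 2% trimmed mean of 1500.1 on every array.

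Arrays were scaled to a 2% trimmed mean of 500 over 12588 probe sets, leaving out 66 controls. A floor of 50 was set before log2. Printed signals are scaled values before that floor. A filter kept 7204 probe sets, those at 200 or more on 5 or more arrays, for limma 3.58.1 (R 4.3.3; lmFit, eBayes with an intensity trend, 4 groups, no covariate, 16 residual degrees of freedom), with Benjamini-Hochberg adjustment within each comparison at 0.05. The fit was tested on simulated data. Gene names come from the platform annotation. The members and lists were chosen with earlier results of these data known. Besides Mt1 and Mt2, the genes named are Dmd, Mtf1, Mt3 and Mt4, some that passed from each list described, examples from some lists where none did, and the 6 most alike. The 4 pathway and 8 marker lists were read by counts. Neutrophil, adipocyte, endothelial and nerve markers in leg muscle numbered 1 of 4, 0 of 5, 0 of 9 and 0 of 4 risen and 0, 1, 0 and 0 fallen. None of 10 muscle markers or 7 epithelial ones passed there. The shares of all tested probe sets were 10.7% risen and 7.15% fallen. In extraocular muscle 1 macrophage marker was the only listed gene that passed by its brightest probe set. The fit of Mt1 and Mt2 between muscles was planned as a test, but its p-values are not given, since the extraocular arrays led to the choice of the genes. Alternatives were another scaling, floor, pseudocount, filter, no trend, array weights, fewer groups, a replicate block and leaving out arrays.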

Additional observations from a re-analysis of the deposited data

Results flagged for a closer look

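Of 16 sets of 5 arrays checked for Mt1, Mt2, Mt3 and Mtf1, 3 had 1 array far from the other 4 by Dixon's test at its 95% critical value, where chance gives about 1 in 20. Mt1 was at 3310 on EOM control 1, against 1985 to 2257 on the other EOM control arrays. Mt1 was at 2013 on leg control 1, against 851 to 1040 on the other leg control arrays. Mt2 was at 4025 on EOM control 1, against 1963 to 2386 on the other EOM control arrays. All 3 values are of control arrays numbered 1 and lie above the rest of their group. The sets checked include the extraocular arrays that led to the choice of the genes.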

How the results depend on the processing

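In all, 286 values of the Mt1 and Mt2 comparisons, their array by array correlation and their ratio were recomputed. Of these, 284 kept their direction and, where tested, their side of the threshold, or moved by less than the spread between arrays. Most of the 286 belong to comparisons that use the extraocular arrays, and results that stayed above the threshold count as kept. The tally is therefore not read as support for the leg comparison. The leg mdx minus leg control calls held in all 23 alternatives, with log2 differences between 1.72 and 2.16 for Mt1 and between 2.27 and 2.52 for Mt2 and adjusted p of up to 0.000428 and 3.71e-06. The within-group correlation of Mt1 with Mt2 lay between 0.19 and 0.61 when 1 array was left out, with a permutation p of 0.00682 for the highest, without leg mdx 3. It was -0.58 without the arrays numbered 1, which by construction lowers it. The cause of the value without leg mdx 3 was not tested. Same-numbered arrays of different groups were not treated as paired, since the labels do not name animals. Of 30 same-numbered pairs 4, 3 of them between leg mdx and leg control, had a correlation of deviations over 0.1. An array matched best with its own number in 20 of 60 possible matches, where 1 in 5 gives 12. Whether arrays of the same number share an animal or a batch was not tested. The replicate block gave 1351 called probe sets in leg muscle, against 1287 without it. The count of 6 probe sets in the extraocular comparison was 11 with a floor of 100, with array weights or without EOM mdx 3, and 3 without a filter or without EOM control 2, EOM control 3 or EOM mdx 5. Of 276 recomputed list counts 243 stayed within 1.5 times. Signal over background limits Mtf1 and Mt4.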

Other observations

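In EOM mdx minus leg mdx, where 18.1% of tested probe sets passed, 1 of 18 interleukin 6 and acute phase genes was higher and 5 were lower in EOM mdx. Saa3, an acute phase protein, averaged 61.0 ± 14.5 in EOM mdx and 488 ± 210 in leg mdx arrays (limma adjusted p = 0.000114), and Serpina3n averaged 697 ± 375 in EOM mdx and 2190 ± 678 in leg mdx arrays (limma adjusted p = 0.0017). Of 18 glucocorticoid genes 6 were higher and 2 lower in EOM mdx, among them Klf9, a transcription factor, with 5364 ± 1061 in EOM mdx and 3135 ± 635 in leg mdx arrays (limma adjusted p = 0.00221).

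In EOM control minus leg control, where 17.7% of all tested probe sets passed, 2 of 18 zinc and copper genes were higher and 2 lower in extraocular muscle. The copper carrier Cp averaged 385 ± 65.8 in EOM control and 139 ± 42.6 in leg control arrays (limma adjusted p = 5.3e-05), and the zinc transporter Slc30a4 averaged 420 ± 57.9 in EOM control and 634 ± 57.1 in leg control arrays (limma adjusted p = 0.00394). Of 24 oxidative stress genes 5 were higher and 1 lower in extraocular muscle. Without leg control 1 and 4 the zinc and copper counts were 2 and 2, and the oxidative stress counts 4 and 0.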
